A study of Mus musculus with 13 samples.

Results

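Adgre1, Lyz2 and Ptprc are the 3 leukocyte genes in a panel of 100 genes measured in mouse liver at 7 times after partial hepatectomy. Members were found by name alone, as the rows of these genes in the tables of counts per cell and as the lines with these symbols in the transcript lists. Single transcripts were located in frozen liver sections by Molecular Cartography of Resolve Biosciences, which reads a chosen set of genes in place over repeated rounds of fluorescent labelling. All sections came from male C57BL/6 mice labelled as 2 months old and fed regular chow, and one surgery note, removal of 2/3 of the liver, stands on every sample, those of 0 h included. Sampling times were 0 h, 24 h, 48 h and 72 h with 2 sections each, 14 d with 3, and 3 mo and 6 mo with 1 each. No label ties a section to an animal, so the p-values may reflect technical spread alone. Should 2 months have been the age at surgery, the mice of 3 mo and 6 mo were also older, and age and time cannot be told apart there. By their titles, slide 1 carried 0 h section 1, the 24 h and 48 h sections, 72 h section 1 and 3 mo. Slide 2 carried 0 h section 2, 72 h section 2 and 6 mo. Slide 3 carried the 14 d sections and no other, so an effect of that slide and of 14 d cannot be told apart.

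Ptprc encodes CD45, a receptor-type tyrosine phosphatase on the surface of leukocytes of every lineage. Adgre1 encodes F4/80, an adhesion G protein-coupled receptor used in mice to mark tissue macrophages, which in the liver are mainly the Kupffer cells that sit in the sinusoids. Lyz2 encodes lysozyme M, an enzyme of macrophages, monocytes and neutrophils that breaks bacterial cell walls. Kupffer cells are known in mice to lie more densely toward the portal side of the lobule and to release cytokines that prime hepatocytes to divide after partial hepatectomy. Of lists of further leukocyte genes, the panel held 0 of 22 other macrophage and Kupffer cell genes, 0 of 21 monocyte, neutrophil and dendritic cell genes, 0 of 16 lymphocyte genes and 0 of 17 inflammatory ligands and growth factors. The 3 genes therefore had no other leukocyte marker to be checked against, and the cells that carried them are named here by the genes detected in them. For neighbouring cell types the panel held Pecam1 of endothelial cells, Lrat of stellate cells and Sox9 of cholangiocytes, beside central and portal genes of hepatocytes. Probe sequences are not given in the sources used here, so whether the Lyz2 probes separate it from its close paralog Lyz1 is unknown.

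Promoters of Lyz2 and Ptprc are shown because transcripts of these genes lay in the same cells (given further on), and because macrophages use ETS-family factors such as PU.1, which bind a GGAA core. Of the 3 genes, 2 had an entry in the RefSeq promoter table (GRCm38.p6), and Adgre1 is named only. The 250 bases before an annotated start are given 5′ to 3′ on the gene's own strand, with AGGAAGT, on either strand, in capitals. The motif was chosen after the sequences were seen.
Lyz2, chr10:117282273-117282522, minus strand: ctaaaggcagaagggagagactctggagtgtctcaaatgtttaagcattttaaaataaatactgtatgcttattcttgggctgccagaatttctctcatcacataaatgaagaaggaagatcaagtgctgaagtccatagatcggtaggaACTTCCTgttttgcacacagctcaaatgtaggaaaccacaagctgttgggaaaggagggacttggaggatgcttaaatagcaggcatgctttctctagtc
Ptprc, chr1:138175306-138175555, minus strand: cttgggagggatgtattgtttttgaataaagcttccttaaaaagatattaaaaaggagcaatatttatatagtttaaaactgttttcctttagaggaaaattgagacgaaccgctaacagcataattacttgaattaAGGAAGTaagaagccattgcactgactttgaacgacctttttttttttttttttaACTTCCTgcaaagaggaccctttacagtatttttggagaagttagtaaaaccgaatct
The Lyz2 window held 1 match, beginning 100 bases before the start, and the Ptprc window shown held 2, beginning 113 and 58 bases before its start. The table gives Ptprc another start, whose window, chr1:138175127-138175376, overlaps this one and held 1 match, beginning 237 bases before that start. That match is the same stretch as the one beginning 58 bases before the first start. Of 32851 mouse promoters of this length, 2525 (7.69%) held the motif. A match describes the letters and is not a measured binding site.

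The count tables held 131221 cells and 55744933 counts, between 1678015 and 9619206 per section, with a median of 231 to 632 counts per cell. Cell outlines held 60.2% to 79.8% of a section's listed transcripts. Ptprc transcripts lay in outlines most often of 62 genes (median of 12 sections 91.7%), with Adgre1 at 82.3% and Lyz2 at 74.8%. An outline can hold transcripts of a neighbouring cell, and no doublet caller was run. Cells of different sections shared 37 positions, none with equal counts. Both 24 h sections carry the same slide position and no number and were summed to 1 library, so that tests rest on 12 libraries. In counts summed over a section, fewer cells of a kind and less RNA per cell cannot be told apart.

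Lyz2 was the member with the widest range of fitted levels over time, Ptprc made up its largest share of counts at 14 d, and no difference of Adgre1 passed the test. In a single edgeR quasi-likelihood fit of the 7 times (TMM scaling, Benjamini-Hochberg adjustment over 99 genes), Lyz2 differed among times with an adjusted p of 0.00057, Ptprc with 0.0193 and Adgre1 with 0.184. The share of all tested genes that passed this test was 65.7%, so 2 of 3 members is close to the background. Lyz2 still passed with the slide as a block (adjusted p = 0.0323, edgeR). On slide 1 alone only 48 h had more than 1 library, so a fit there takes its spread from the 48 h sections and from other genes. Ptprc did not pass with the slide as a block (adjusted p = 0.571) or without the 14 d sections (0.353). Neither setting compares 14 d with other times, as slide 3 carried the 14 d sections alone. Ptprc also missed the threshold without 14 d section 1 (0.0509), 2 (0.102) or 3 (0.0509). Adgre1 passed once either 48 h section was left out, at 0.00954 without section 1 and 0.0385 without section 2. In TMM-scaled CPM the 48 h sections had the largest SD of Adgre1 among times with several libraries (676 ± 259 CPM, n = 2), against 986 ± 128 CPM at 0 h (n = 2).

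Per 100000 counts in cells, Lyz2 stood at 418 and 347 in the 0 h sections, 367 and 386 at 24 h, 372 and 322 at 48 h, 365 and 258 at 72 h, 636, 732 and 676 at 14 d, 925 at 3 mo and 977 at 6 mo. Every section of 14 d or later was thus above every earlier section, and the 3 mo and 6 mo sections were above those of 14 d. The order holds on each slide that carried several times, with 925 at 3 mo against 418 at 0 h on slide 1 and 977 at 6 mo against 347 at 0 h on slide 2. Ptprc had 58.1 and 66.5 per 100000 counts at 0 h, 41.1 and 43.1 at 24 h, 53.2 and 48.2 at 48 h, 68.9 and 60.2 at 72 h, 128, 147 and 123 at 14 d, 73.1 at 3 mo and 59.01 at 6 mo. Only the 14 d sections lay apart from the rest, at least 123 against at most 73.1. Adgre1 had 86.5 and 55.7 per 100000 counts at 0 h, 50.7 and 50.5 at 24 h, 91.2 and 60.6 at 48 h, 104 and 103 at 72 h, 68.3, 87.0 and 67.3 at 14 d, 91.2 at 3 mo and 77.4 at 6 mo. Its lowest sections were those of 24 h and its highest those of 72 h, while those of 48 h and of 14 d on lay between 60.6 and 91.2, against 55.7 to 86.5 at 0 h.

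**Figure D1:**
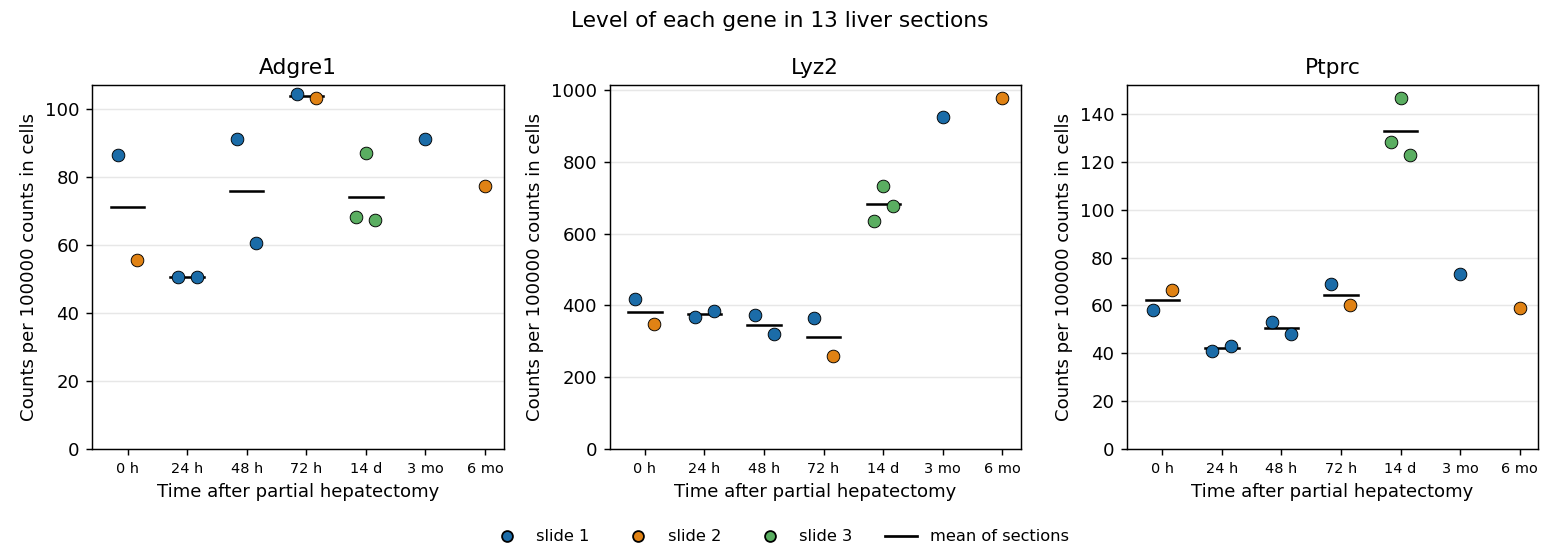
Counts of Adgre1, Lyz2 and Ptprc per 100000 counts in cells (y axis) at each time after partial hepatectomy (x axis, not to scale). Points are the 13 sections coloured by slide, and bars are means of times with more than 1 section. Lyz2 was highest in the 3 mo and 6 mo sections, at 925 and 977, and Ptprc in the 14 d sections, at 123 to 147.

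At 6 mo Lyz2 was higher than at 0 h by 1.06 ± 0.33 in log2 (SE, 1 library against n = 2, edgeR adjusted p = 0.0256), at 11211 CPM against 5393 ± 268 CPM (SD, n = 2). As 6 mo had a lone section, its spread was taken from the other times. Lyz2 was 1 of the 11.1% of tested genes that rose at 6 mo. At 3 mo its difference was 0.63 ± 0.33 (adjusted p = 0.411), which did not pass. Scaling by cell number in place of TMM left the 6 mo value at 1.02 but not past the threshold (adjusted p = 0.131). So did the slide as a block (1.08, adjusted p = 0.101). Markers of other cell types stood as follows at 6 mo against 0 h. Sox9 was higher by 1.37 ± 0.43 (adjusted p = 0.0256), Lrat stood at 0.70 ± 0.38 and Pecam1 at -0.08 ± 0.34, neither of which passed. Of the same cell types, Cldn7 of cholangiocytes stood at 1.38 ± 0.58. Wnt2 of endothelial cells stood at -0.20 ± 0.46, Wnt9b at -0.64 ± 0.51 and Rspo3 at -1.01 ± 0.59. None of these further genes passed. The part of any of these markers in the Lyz2 result was not tested.

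At 48 h, 2 of the 3 members were lower than at 0 h in the same fit, beside 12.1% of all tested genes. Lyz2 had 3059 ± 627 CPM at 48 h and 5393 ± 268 CPM at 0 h, and Ptprc 446 ± 76.7 CPM at 48 h and 897 ± 245 CPM at 0 h (SD, n = 2 each). On the share of all counts, however, the Lyz2 sections of 48 h overlapped those of 0 h, and the differences shrank to -0.14 for Lyz2 and -0.30 for Ptprc (adjusted p = 0.652 and 0.413, edgeR with total-count scaling). Total-count scaling placed the median gene 0.67 higher at 48 h than TMM did, in log2. The Lyz2 call also ended without section 2 of 0 h (-0.80, adjusted p = 0.0694), section 2 of 48 h (-0.61, 0.144) or any 14 d section (0.0511 to 0.0558). The Ptprc call ended without section 2 of 0 h (-0.73, 0.0974), 48 h (-0.83, 0.126) or 72 h (-1.01, 0.0650), or any 14 d section (0.0696 to 0.0803).

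At 14 d against 0 h, whether Lyz2 and Ptprc passed depended on the scaling. With TMM, Lyz2 differed from 0 h by 0.07 ± 0.25 and Ptprc by 0.30 ± 0.32 (adjusted p = 0.814 and 0.497, edgeR), so neither passed, and Lyz2 was at -0.05 once Cyp2e1 was left out of the libraries. With total-count scaling both were higher, Lyz2 by 0.83 (adjusted p = 0.0156) and Ptprc by 1.09 (0.00816), as were 37.4% of tested genes. Relative to the number of cells both were higher again, Lyz2 by 1.57 (0.0013) and Ptprc by 1.83 (0.000914), as were 75.8% of tested genes. Markers of other cell types moved as well with total-count scaling, Pecam1 by 1.42 ± 0.27 (adjusted p = 0.00211), Sox9 by 1.62 ± 0.30 (0.00188) and Cldn7, another cholangiocyte gene, by 2.60 ± 0.53 (0.00319), while Lrat stood at 0.11 ± 0.33, and Wnt2, Wnt9b and Rspo3 of endothelial cells did not pass. With TMM, Cldn7 still passed, at 1.92 ± 0.47 (edgeR adjusted p = 0.00335). Pecam1 stood at 0.67 ± 0.25 (0.0542), Sox9 at 0.87 ± 0.34 (0.0608) and Lrat at -0.63 ± 0.29 (0.101) with TMM. Wnt2, Wnt9b and Rspo3 did not pass with TMM either. The 4 endothelial genes summed to 548 to 630 per 100000 counts in the 14 d sections, against 203 to 291 at 0 h, the 2 cholangiocyte genes to 83.3 to 93.9 at 14 d, against 23.2 to 30.7 at 0 h, and Lrat to 148 to 176 at 14 d, against 126 to 175 at 0 h. None of these genes was at 0 in any section, and their part in the members' results was not tested. These shifts are to be read against the median gene, which total-count scaling moved up by 0.74 at 14 d and scaling by cell number by 1.47, relative to TMM. Adgre1 stood at -0.67 ± 0.33 with TMM (adjusted p = 0.126) and did not pass.

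Ratios between members do not depend on the scaling between sections. The size of a ratio also holds how well each gene's probes detect it, so only its changes are compared. Lyz2 over Adgre1 was 4.83 and 6.23 at 0 h, 7.24 and 7.63 at 24 h, 4.08 and 5.31 at 48 h, 3.49 and 2.51 at 72 h, 9.31, 8.41 and 10.04 at 14 d, 10.1 at 3 mo and 12.6 at 6 mo. The ratio was lowest at 72 h, below every other section, and highest at 14 d and later, above every earlier section. Over 0 h, 48 h, 72 h and 14 d, the times with several libraries, it differed by an exact permutation test of the F statistic of log2 ratios (p = 0.0015873, 0.0047619 adjusted over the 3 ratios, 9 libraries). Without any 1 of the 14 d sections the adjusted p was 0.0571. Ptprc over Adgre1 was 0.672 and 1.19 at 0 h, 0.811 and 0.853 at 24 h, 0.583 and 0.796 at 48 h, 0.661 and 0.584 at 72 h, 1.88, 1.69 and 1.83 at 14 d, 0.801 at 3 mo and 0.762 at 6 mo. The 14 d sections lay above all others, the highest of which was section 2 of 0 h at 1.19. Its exact permutation p was 0.0294 (0.0440 adjusted). The adjusted p rose to between 0.05 and 0.1 without either 48 h section, either 72 h section or any 14 d section.
Lyz2 over Ptprc was 7.19 and 5.22 at 0 h, 8.93 and 8.95 at 24 h, 6.997 and 6.67 at 48 h, 5.29 and 4.296 at 72 h, 4.96, 4.99 and 5.50 at 14 d, 12.7 at 3 mo and 16.6 at 6 mo. Over the times with several libraries it did not pass the exact permutation test (p = 0.129), and it passed without section 2 of 0 h (adjusted p = 0.0405). With all 7 times and the 24 h sections as 2 libraries its adjusted p was 0.00099 in 100000 random permutations, with the 3 mo and 6 mo sections above every other. Lyz2 relative to Ptprc was thus highest at 3 mo and 6 mo, and Ptprc relative to Adgre1 at 14 d.

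**Figure D2:**
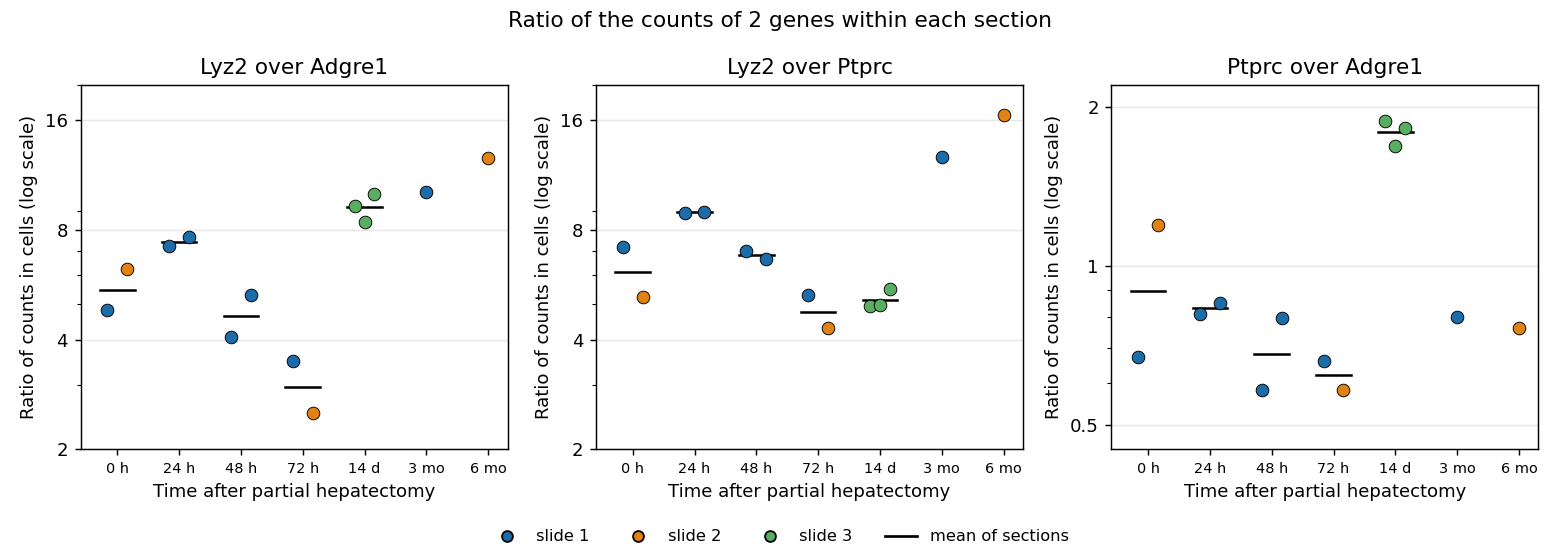
Ratio of the counts in cells of 2 genes within a section (y axis, log scale) at each time (x axis). Points are the 13 sections coloured by slide, and bars are geometric means. Lyz2 over Adgre1 was lowest at 72 h, at 2.51 and 3.49, and Ptprc over Adgre1 lay at 1.69 to 1.88 in the 14 d sections.

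Between 18.0% and 35.3% of the cells of a section had a Lyz2 transcript, 8.77% to 16.5% had Adgre1 and 6.77% to 21.0% had Ptprc. Detection depends on the number of transcripts per cell, so each cell was thinned to 100 transcripts and smaller cells were left out (137 to 1827 per section, the highest number at 6 mo). Thinned shares for Lyz2 were 16.7% and 15.0% at 0 h, 14.8% in the pooled 24 h sections, 15.1% and 12.2% at 48 h, 15.0% and 12.5% at 72 h, 19.7%, 21.0% and 19.98% at 14 d, and 27.1% at both 3 mo and 6 mo. All sections of 14 d or later were again above all earlier ones. Thinned shares for Ptprc were 5.11% and 5.86% at 0 h, 3.65% at 24 h, 4.88% and 4.48% at 48 h, 6.17% and 5.71% at 72 h, 9.92%, 10.8% and 9.12% at 14 d, 6.76% at 3 mo and 5.23% at 6 mo. The 14 d sections again stood clear of the rest. For Adgre1 they ran between 4.89% at 24 h and 8.55% in section 1 at 72 h, against 7.13% and 5.58% at 0 h.
In limma fits of the log2 odds of these shares over 74 genes, Lyz2 (adjusted p = 0.0147) and Ptprc (0.00795) differed among times and Adgre1 (0.356) did not pass. Of all genes 70.3% passed, so that 2 of 3 is again near the background. Ptprc was the one member that passed at 14 d against 0 h, higher by 0.93 ± 0.23 in log2 odds (SE, n = 3 against 2, adjusted p = 0.00979), where 41.9% of genes were higher. Without section 2 of 14 d the adjusted p was 0.0584 for this difference, 0.0623 for Ptprc over time and 0.0561 for Lyz2 over time. With the slide as a block neither gene passed (adjusted p = 0.172 for Lyz2 and 0.841 for Ptprc). That block does not compare 14 d with other times, as slide 3 carried the 14 d sections alone.

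Cells that held 1 member held the others far more often than cells without it. Of cells with Adgre1, 83.3% to 94.9% also had Lyz2, against 10.1% to 28.2% of cells without Adgre1. Ptprc was found in 33.7% to 68.9% of cells with Adgre1, and in 4.002% to 11.6% of cells without it. In the other direction, 28.7% to 55.2% of cells with Lyz2 and 43.8% to 63.6% of cells with Ptprc had Adgre1. Cells with a member were the smaller ones, with a median of 185 to 507 transcripts for cells with Adgre1 and 241 to 660 for cells without it. Sox9, a cholangiocyte gene that macrophages should lack, was found in 3.78% to 16.6% of cells with Adgre1 and 5.39% to 23.3% of cells without it. It was not lower with every member in every section. At 3 mo it was in 8.14% of cells with Adgre1 and 7.36% of cells without it, and at 6 mo in 12.1% of cells with Lyz2 and 7.55% of cells without it. Cells with Lyz2 also had it more often at 3 mo and in section 2 of 24 h, and cells with Ptprc at 6 mo.
To compare cells of like size, the odds ratio of detecting a pair in a cell was taken within 10 strata of the cell's total, and libraries served as replicates. Averaged over times, it was 4.99 ± 0.06 in log2 for Adgre1 with Lyz2, 3.65 ± 0.06 for Adgre1 with Ptprc and 3.26 ± 0.05 for Lyz2 with Ptprc (SE, limma, 12 libraries, adjusted p = 2.85e-10, 5.48e-10 and 5.48e-10). All 3 pairs passed above 0, as did 57.3% of the 2485 pairs tested. Adgre1 with Lyz2 ranked 6th by size among them, after pairs of hepatocyte genes led by Cps1 with Gls2 (5.53). For each member the highest of 70 partners were the other members. The next were Lrp5, a Wnt co-receptor gene, with Adgre1 (1.99 ± 0.10), Lrat with Lyz2 (1.65 ± 0.05) and Ccnd1, the gene of cyclin D1, with Ptprc (1.46 ± 0.06). Pecam1 stood at 0.88 ± 0.08 with Adgre1, 0.93 ± 0.06 with Lyz2 and 1.15 ± 0.06 with Ptprc. Wnt2, another endothelial gene, did not share this, at -0.19 ± 0.06 with Adgre1, 0.09 ± 0.06 with Lyz2 and -0.22 ± 0.05 with Ptprc. Sox9 stood at -0.29 ± 0.05 with Adgre1, 0.07 ± 0.05 with Lyz2 and -0.18 ± 0.05 with Ptprc. Hepatocyte genes lay on both sides of 0. The 9 central genes had a median of 0.15 with Adgre1 (-0.80 for Lgr5 to 0.75 for Glul), 0.08 with Lyz2 (-0.97 for Lgr5 to 0.48 for Glul) and 0.13 with Ptprc (-0.65 for Lgr5 to 0.73 for Glul). Cyp2e1 among them stood at -0.36 ± 0.06 with Adgre1, -0.46 ± 0.05 with Lyz2 and -0.34 ± 0.05 with Ptprc. The 5 portal genes tested had a median of 0.09 with Adgre1, 0.25 with Lyz2 and 0.08 with Ptprc, and the highest was Cps1, at 0.72, 0.71 and 0.38 with these members.

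Over time, co-detection of Adgre1 with Lyz2 was lowest at 14 d. Its log2 odds ratio was 5.05 and 4.71 at 0 h, 4.98 and 5.32 at 24 h, 5.42 and 5.32 at 48 h, 4.84 and 5.20 at 72 h, 4.12, 4.07 and 4.12 at 14 d, 5.44 at 3 mo and 4.94 at 6 mo. The 14 d sections lay below all others. This pair differed among times (adjusted p = 0.0118, limma), as did 27.1% of pairs. It was lower at 14 d than at 0 h by a log2 difference of -0.77 ± 0.18 (SE, n = 3 against 2, adjusted p = 0.0140), where 5.43% of pairs were lower. Adgre1 with Ptprc (adjusted p = 0.223) and Lyz2 with Ptprc (0.409) did not pass over time. The 14 d call ended without section 1 of 0 h (-0.60, adjusted p = 0.0552) or section 2 of 14 d (-0.76, 0.0547). The pair's test over time ended without section 1 (0.0518) or 2 (0.0605) of 14 d, and with the slide as a block (0.772). That block does not compare 14 d with other times, as slide 3 carried the 14 d sections alone. Cells of 14 d held more transcripts, a median of 632, 626 and 470 per section against 314 and 317 at 0 h. Their part in the result was not tested beyond the strata. With no strata the difference was -0.75, and with at least 2 transcripts required for detection it was -1.23 (adjusted p = 0.00989 and 0.00883).

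**Figure D3:**
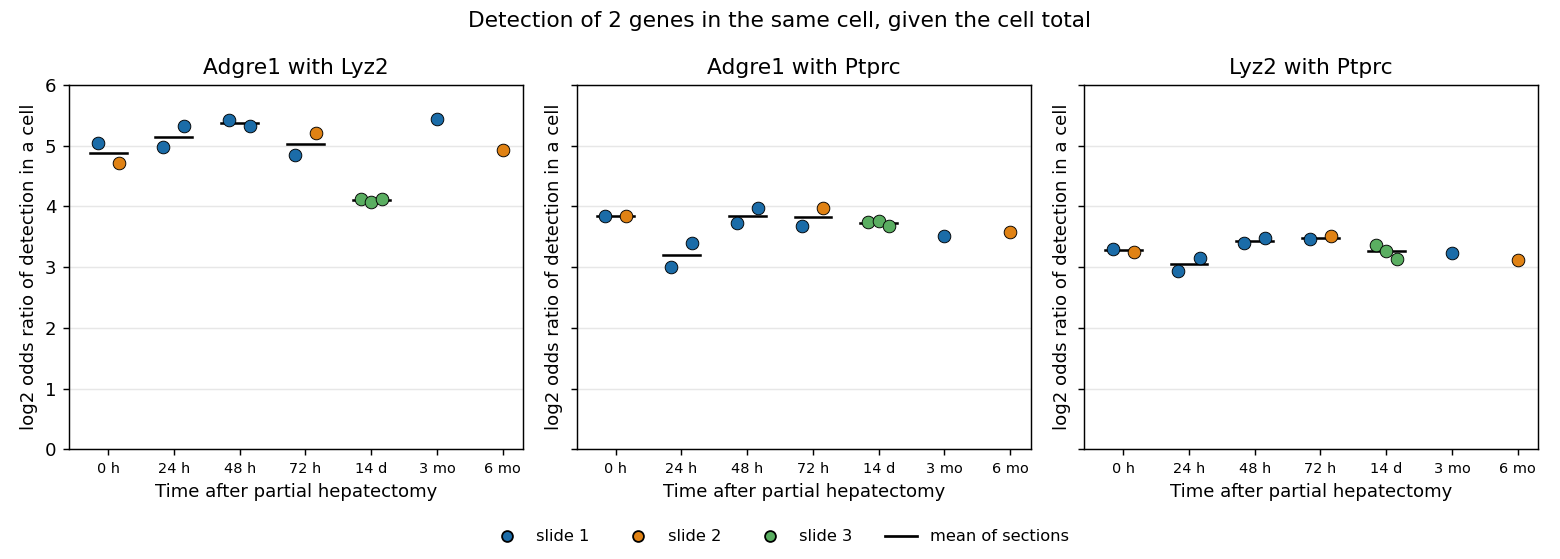
log2 odds ratio of detecting 2 genes in the same cell, within strata of the cell total (y axis), at each time (x axis). Points are the 13 sections coloured by slide, and bars are means. Adgre1 with Lyz2 lay at 4.07 to 4.12 in the 14 d sections and at 4.71 to 5.44 in the others.

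Cells were also sorted by which members they held. In cells thinned to 100 transcripts, Lyz2 without either other member was found in 9.75% and 8.76% of cells at 0 h, 9.05% and 8.997% at 24 h, 8.17% and 6.78% at 48 h, 6.85% and 5.40% at 72 h, 10.8%, 11.6% and 11.7% at 14 d, 17.2% at 3 mo and 19.1% at 6 mo. The 3 mo and 6 mo sections were above all others and those of 72 h were among the lowest. Lyz2 together with Ptprc but without Adgre1 was found in 1.31% and 1.86% of cells at 0 h, 1.09% to 1.65% between 24 h and 72 h, 3.94%, 4.06% and 3.77% at 14 d, 2.44% at 3 mo and 2.01% at 6 mo. The 14 d sections were thus highest in this class. All 3 members together were found in 2.10% and 1.90% of cells at 0 h, 0.956% and 1.03% at 24 h, 1.80% and 1.48% at 48 h, 2.38% and 2.62% at 72 h, 2.40%, 3.00% and 2.14% at 14 d, 2.68% at 3 mo and 2.10% at 6 mo. Here the 24 h sections were lowest, those of 48 h were also below both 0 h sections, and those of 72 h and later were above them, at 6 mo barely so (2.103% against 2.097% in section 1 of 0 h).

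Most Lyz2 counts lay in cells with Adgre1, 50.5% to 78.3% of a section's Lyz2 counts. Within these cells Lyz2 made up 3198 and 2798 of 100000 counts at 0 h, 3212 and 3260 at 24 h, 2724 and 3008 at 48 h, 2597 and 1986 at 72 h, 3346, 3627 and 3516 at 14 d, 5630 at 3 mo and 6272 at 6 mo. The 14 d sections were thus above every earlier section in these cells too, at least 3346 against at most 3260. For Lyz2 in whole sections this was at least 636 against at most 418. The 3 mo and 6 mo sections were above all others. In cells with Ptprc and no Adgre1, Lyz2 made up 952 and 1584 of 100000 counts at 0 h and 1487, 1489 and 1829 at 14 d. It made up 2150 at 3 mo and 3589 at 6 mo in that class. In cells with neither Adgre1 nor Ptprc, Lyz2 made up 123 and 115 of 100000 counts at 0 h, 127, 127 and 187 at 14 d, 308 at 3 mo and 432 at 6 mo. The highest values at 3 mo and 6 mo therefore appeared in cells with and without the other members. Cells with Adgre1 made up the largest share of Lyz2 counts at 72 h (78.3% and 76.8%) and the smallest at 6 mo (50.5%), where 39.5% lay in cells with neither other member. These classes were taken without thinning, and cells held a median of 231 transcripts at 6 mo against 491 and 441 at 72 h. Of thinned cells with Lyz2, 42.7% and 48.1% had Adgre1 at 72 h, 23.9% at 6 mo and 22.8% in section 3 of 14 d. The part of depth was not tested. Whether Lyz2 counts in cells with neither other member came from neighbouring cells was not tested either.

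Transcript positions placed the members next to each other without use of the cell outlines. For each gene, the share of its transcripts with a transcript of a given member within 40 coordinate units was set against the same share of all other transcripts, in 12 sections. The unit's length in tissue is not stated in the labels. Lyz2 and Ptprc ranked first and second of 61 genes near Adgre1, with medians of 13.5 and 12.4 times the share of other transcripts, and Lrat was next at 3.59. Near Lyz2 the ranking was Adgre1 (8.65), Ptprc (6.39) and Lrat (3.11), and near Ptprc it was Adgre1 (18.8), Lyz2 (12.7) and Pecam1 (3.23). The ratio of Lyz2 near Adgre1 was 13.2 and 13.6 at 0 h, 16.8 and 17.0 at 24 h, 13.5 and 18.4 at 48 h, 13.03 and 14.4 at 72 h, 9.03 and 8.10 at 14 d, 13.6 at 3 mo and 12.7 at 6 mo. As with co-detection in cells, the 14 d sections were lowest. This was not particular to the pair. Ptprc near Adgre1 was at 8.19 and 7.41 at 14 d, against 11.6 and 13.5 at 0 h. Lyz2 near Ptprc was at 7.61 and 6.92, against 12.7 and 12.7. Adgre1 near other Adgre1 transcripts was at 12.6 and 11.1, against 16.8 and 19.6. In each, the 14 d sections were lowest. The share of Lyz2 transcripts near Adgre1 was 57.8% and 61.3% at 14 d, against 62.0% and 48.6% at 0 h. Transcripts of the 14 d sections were also the most dense, 8703 and 8357 per tile against 4957 and 4887 at 0 h. Of all other transcripts, 6.40% and 7.57% lay near Adgre1 at 14 d, against 4.69% and 3.58% at 0 h, and the part of this in the ratios was not tested.

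Along the lobule, shares of the members were higher toward the portal side at 0 h, 3 mo and 6 mo and less so or not at all from 24 h to 14 d, a split that held in part without Cyp2e1. Position was read as the Spearman correlation, across tiles of 400 units, of a gene's share of the tile's transcripts with a score of 9 central minus 6 portal hepatocyte genes, so that values below 0 mean the portal side. Adgre1 had -0.352 and -0.360 at 0 h, -0.108 and -0.047 at 24 h, -0.024 and -0.102 at 48 h, -0.071 and -0.208 at 72 h, 0.073 and 0.042 at 14 d, -0.355 at 3 mo and -0.321 at 6 mo. Lyz2 had -0.281 and -0.286 at 0 h, -0.041 and -0.012 at 24 h, 0.106 and -0.060 at 48 h, 0.065 and -0.072 at 72 h, -0.009 and 0.070 at 14 d, -0.421 at 3 mo and -0.442 at 6 mo. For both genes every section from 24 h to 14 d was above every section of 0 h, 3 mo and 6 mo. Ptprc had -0.271 and -0.277 at 0 h, -0.136 and -0.164 at 24 h, -0.027 and -0.071 at 48 h, -0.090 and -0.163 at 72 h, -0.089 and -0.051 at 14 d, -0.247 at 3 mo and -0.267 at 6 mo, with the same split but a smaller gap.
Averaged over times, all 3 members were below 0 on Fisher's z scale, Adgre1 at -0.19 ± 0.04, Lyz2 at -0.17 ± 0.04 and Ptprc at -0.17 ± 0.04 (SE, limma, 11 libraries, adjusted p = 0.000236, 0.000659 and 0.000408). Of 62 genes 58.1% passed below 0 and the median gene stood at -0.24, so the members lay near the middle of all genes. Cyp2e1, a central gene of the score, moved with this split. It held 34.3% and 26.7% of the counts in cells at 0 h, 28.6% at 3 mo and 25.1% at 6 mo, and between 7.96% and 24.1% in the sections of the other times. With Cyp2e1 taken out of score and totals, the averages were -0.044 for Adgre1, 0.039 for Lyz2 and -0.056 for Ptprc, and none passed. On this basis Adgre1 had z values of -0.144 and -0.215 at 0 h, 0.219 and 0.201 at 14 d, -0.181 at 3 mo and -0.143 at 6 mo. Adgre1 was thus still lower at 0 h, 3 mo and 6 mo than in any section of the other times. Lyz2 had 0.031 and -0.024 at 0 h, 0.159 and 0.245 at 14 d, -0.130 at 3 mo and -0.140 at 6 mo. Its portal side lean at 0 h was thus not found with Cyp2e1 out of score and totals, while the 3 mo and 6 mo sections were still below all others. Counted as transcripts per tile in place of shares, with Cyp2e1 kept in the score, Lyz2 had correlations of -0.167 and -0.192 at 0 h. Sections from 24 h to 14 d lay between -0.059 and 0.079 on that count. Without Cyp2e1, Ptprc shares had z values of -0.092 and -0.117 at 0 h, -0.095 and -0.105 at 24 h and 0.081 and 0.126 at 14 d. The 3 mo section stood at -0.118 and the 6 mo section at -0.149. The 0 h and 24 h sections of Ptprc thus overlapped without Cyp2e1. Over time, Lyz2 differed (adjusted p = 0.0196), Adgre1 stood at 0.0578 and Ptprc at 0.475, where 45.2% of genes passed. The Lyz2 call ended without section 1 of 72 h (0.0583), section 1 of 14 d (0.0548) or section 2 of 14 d (0.0790), with the slide as a block (0.0707) and without Cyp2e1 (0.385). The slide block does not compare 14 d with other times. At 14 d against 0 h, Adgre1 was higher by 0.43 ± 0.12 (n = 2 each, adjusted p = 0.0211), with 14.5% of genes higher and the median gene at 0.17. Lyz2 stood at 0.32 ± 0.13 (0.0835) and Ptprc at 0.21 ± 0.12 (0.243). Without Cyp2e1 the Adgre1 value was 0.39 (adjusted p = 0.0883). It was 0.31 (0.107) when transcripts per tile took the place of shares, 0.24 (0.0608) with tiles of 200 units, and did not pass without section 1 (0.170) or 2 (0.210) of 14 d.

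**Figure D4:**
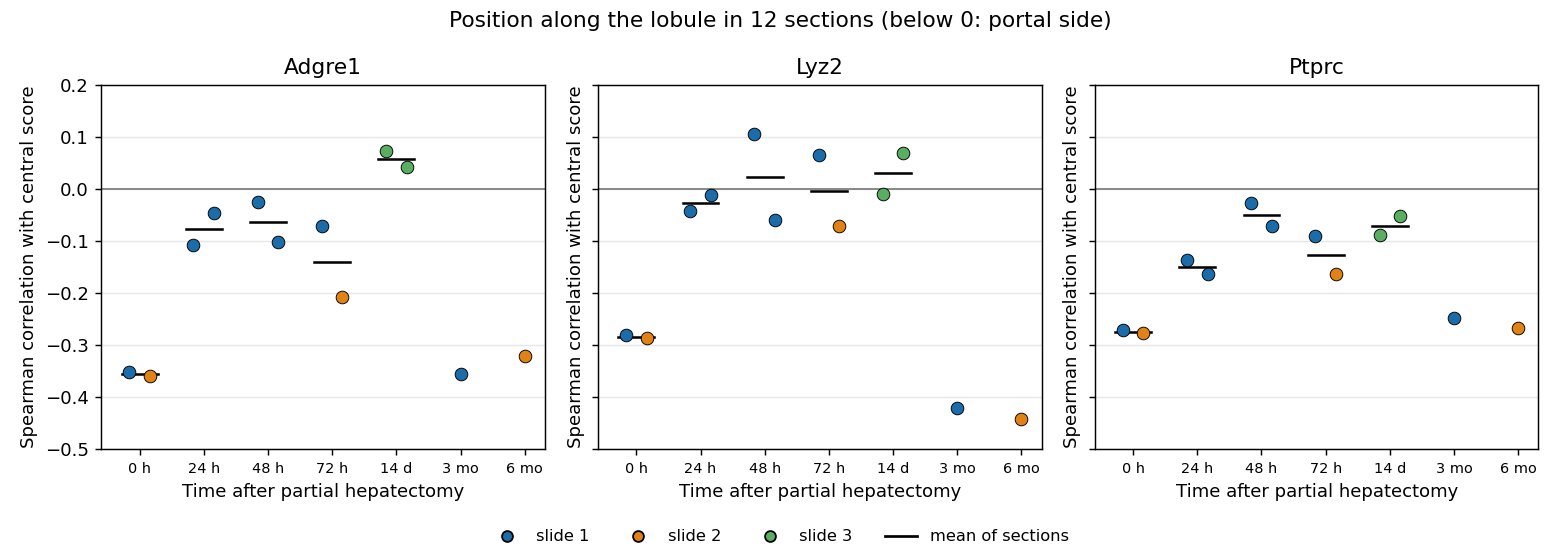
Spearman correlation across tiles of each gene's share with the central-minus-portal score (y axis, below 0 on the portal side) at each time (x axis). Points are the 12 sections with transcript positions, coloured by slide, and bars are means. For Adgre1 and Lyz2 the sections of 0 h, 3 mo and 6 mo lay between -0.442 and -0.281 and the others between -0.208 and 0.106.

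Tiles were also split by the score into 5 zones of equal size, from zone 1 on the portal side to zone 5 on the central side. In the 0 h, 3 mo and 6 mo sections all 3 genes were highest in zone 2 as shares of all transcripts, Cyp2e1 included. Per tile this did not hold throughout. Lyz2 was highest in zone 3 at 0 h, at 24.5 transcripts per tile in section 1 and 19.8 in section 2, and Adgre1 (3.55) and Ptprc (3.66) were highest in zone 1 of section 2 of 0 h. Adgre1 had 103, 135, 90.8, 58.2 and 30.7 transcripts per 100000 in zones 1 to 5 of section 1 of 0 h, where Lyz2 had 466, 589, 547, 395 and 216. At 6 mo Lyz2 had 1052, 1353, 1229, 637 and 288. The 3 mo and 6 mo sections were above all others in zones 1 to 3, while in zone 5 both were below the 14 d sections. At 14 d Lyz2 had 474, 613, 631, 512 and 560 in section 1 and 508, 607, 724, 650 and 730 in section 2, highest in zone 3 of section 1 and in zone 5 of section 2. Ptprc in section 2 of 14 d had 113, 128, 127, 101 and 99.3, against 62.0, 74.3, 55.3, 39.4 and 18.7 in section 1 of 0 h. In each zone the 14 d sections were above every section of the other times in Ptprc.

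**Figure D5:**
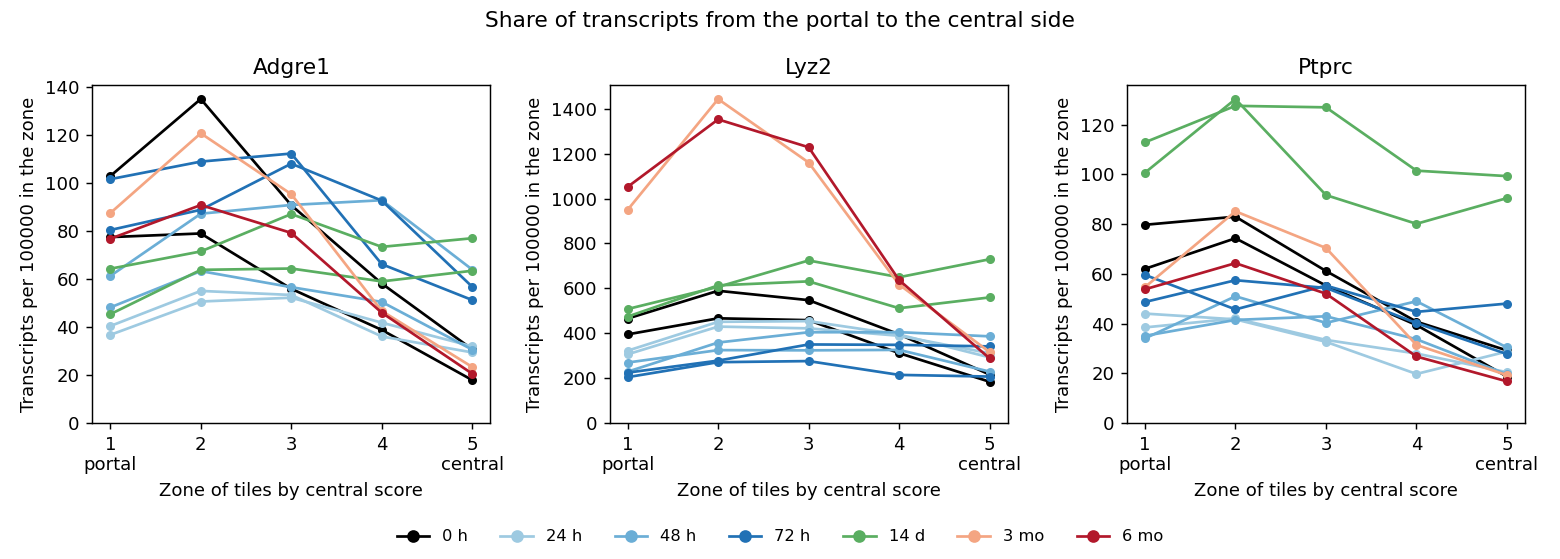
Transcripts of each gene per 100000 transcripts (y axis) in 5 zones of tiles, from the portal (1) to the central side (5) of the score (x axis). Lines are the 12 sections with transcript positions, coloured by time. The 14 d lines of Ptprc lie above all others in every zone, and the 3 mo and 6 mo lines of Lyz2 lie above all others in zones 1 to 3.

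Members correlated more highly with each other in position than in level. Other genes are given only where they were among the most alike, so no typical correlation stands beside either measure. Over 11 libraries, the position values of Adgre1 and Ptprc correlated with Pearson's r of 0.93, Lyz2 and Ptprc with 0.91 and Adgre1 and Lyz2 with 0.89. For each member the other members were the most alike of the genes with position values. The next in line were close, Epas1 with Lyz2 (0.88) and Vtn with Adgre1 (0.86) and Ptprc (0.85). For log2 levels over 12 libraries, r was 0.17 for Adgre1 and Ptprc, 0.50 for Lyz2 and Ptprc and 0.15 for Adgre1 and Lyz2. The genes with levels most like Adgre1 were Cyp2e1 (0.71), Lrp6 (0.64) and Lrat (0.57). Those most like Lyz2 were Wnt1 (0.84), Wnt8b (0.60) and Wnt10a (0.59), and those most like Ptprc were Epas1 (0.81), Atp5a1 (0.78) and Cyp8b1 (0.76). These values describe the libraries, which share times, slides and scaling.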

How the data were processed

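The deposited tables hold whole-number counts of transcripts per gene and cell, and the deposited transcript lists hold the position and gene of each molecule. Resolve Biosciences ran the assay, per the labels' protocols. Methods of decoding and of outlining cells are not given in the sources used here. The list of 1 14 d section was not used, which leaves 12 sections for position. Counts were summed per section and fitted with edgeR 4.0.16 (quasi-likelihood, TMM, at least 10 counts in at least 2 libraries, 5 residual degrees of freedom). Shares of cells, log2 odds ratios of co-detection and Fisher's z of position were fitted with limma 3.58.1, and ratios were tested by exact permutation in Python 3.11.15. DESeq2 1.42.0 served as an alternative. A call is an adjusted p under 0.05, two-sided, adjusted over all features fitted. Shares of all genes or pairs given beside a result count only calls. Tests on simulated data came first. There the edgeR fit of 14 d against 0 h called 2 of 10 genes changed 2-fold, with a median estimate of 0.74 in log2. It called 10 of 10 genes changed 4-fold and 2 of 77 not changed. A level that did not pass can therefore still differ by 2-fold. Position used genes with at least 500 transcripts in each section and tiles with at least 50. Sections of 1 time differed by far more than counting error (lowest chi-square 199 per degree of freedom). Deviations of same-numbered sections correlated at -0.51 to 0.21 (median -0.11, 12 pairs), so numbers pair no sections. All members are named, other genes by role or by rank of likeness. The members and lists were chosen with earlier results of these data known.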

Additional observations from a re-analysis of the deposited data

How the results depend on the processing

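Of 1848 values recomputed under other settings, 1711 kept their direction and side of the threshold, 84 lost the call, 52 gained one and 1 turned its sign. The cause of a change was not tested unless fewer libraries or genes are named. The Lyz2 level over time passed under every alternative run, and so did the co-detection of each pair of members averaged over times. With total-count scaling and relative to cell number, values against 0 h were -0.14 and -0.11 for Lyz2 and -0.30 and -0.26 for Ptprc at 48 h, and 0.83 and 1.57 for Lyz2 and 1.09 and 1.83 for Ptprc at 14 d. At 6 mo Lyz2 was 1.02 relative to cell number. With the slide as a block Lyz2 was -0.88 at 48 h and 1.08 at 6 mo and Ptprc -0.86 at 48 h, and on slide 1 alone the 48 h values were -0.72 and -0.65. Without all 14 d sections (chosen after seeing the data for the test over time) Lyz2 was -0.83 at 48 h and 1.04 at 6 mo and Ptprc -1.03 at 48 h. With these sections as 1 library, Lyz2 was 1.20 at 6 mo and Ptprc -1.19 at 48 h. A fit of only the times compared gave -0.74 for Adgre1 at 14 d and, at 48 h, -0.88 for Lyz2 and -1.07 for Ptprc. With the 24 h sections as 2 libraries, Adgre1 was -0.88 and Ptprc -1.005 at 24 h. DESeq2 gave -1.11 for Ptprc at 24 h and -0.93 for Lyz2 at 72 h, all transcripts gave -0.95 and leaving out Cyp2e1 -0.84 for Lyz2 at 72 h, and a fit that was not robust gave -0.82 for Lyz2 at 48 h. Adjusted p for the Ptprc level over time was 0.142 with the 14 d sections as 1 library, 0.571 with the slide as a block, 0.670 on slide 1 and 0.353 without 14 d. With the slide as a block, adjusted p over time was 0.172 for the Lyz2 share of cells, 0.841 for the Ptprc share, 0.772 for co-detection of Adgre1 with Lyz2 and 0.0707 for the Lyz2 position. Over all transcripts, which leaves 2 sections at 14 d, adjusted p of the ratios was 0.0571 for Lyz2/Adgre1 and 0.1 for Ptprc/Adgre1, and over all 7 times it was 0.00099 for Lyz2/Ptprc. Average position without Cyp2e1 was -0.044 for Adgre1, 0.039 for Lyz2, which turned its sign, and -0.056 for Ptprc. Adjusted p of the Adgre1 position over time was 0.0305 with the 24 h sections as 2 libraries, 0.00791 with tiles of 800 units and 0.0214 from transcripts in cells. That of Lyz2 was 0.0656 with tiles of 200 units, 0.385 without Cyp2e1, 0.132 per tile and 0.175 per tile without Cyp2e1.

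Section numbers did not pair sections. With the number as a replicate block, 45 of 57 results were on the same side, 10 lost and 2 gained a call. The values were -0.88 for Lyz2 and -1.05 for Ptprc at 48 h. For the ratios over time, the adjusted p was 0.125 for Lyz2/Adgre1 and 0.188 for Ptprc/Adgre1. Before adjustment Lyz2/Adgre1 was at p = 0.0417, the smallest value that the 576 arrangements of this permutation test allow. After adjustment a ratio could pass only if all ratios reached that value, so the lost calls of the ratios decide nothing. The adjusted p over time was 0.254 for the Lyz2 share and 0.0647 for the Ptprc share. The average position of Lyz2 was -0.060. For position over time, the adjusted p was 0.0458 for Adgre1 and 0.102 for Lyz2.

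Leaving out each section in turn gave -1.06 to -0.60 for Adgre1 at 24 h, -1.36 to -0.19 at 48 h and -0.87 to -0.55 at 14 d, -1.42 to -0.61 for Lyz2 at 48 h and -1.12 to -0.48 at 72 h, and -1.22 to -0.64 for Ptprc at 24 h and -1.58 to -0.73 at 48 h. A lone section left at a time was assumed to vary like the others. Adjusted p over time ran from 0.00954 to 0.396 for the Adgre1 level and 0.00226 to 0.102 for Ptprc, 0.00536 to 0.0571 for Lyz2/Adgre1, 0.0405 to 0.267 for Lyz2/Ptprc and 0.00536 to 0.1 for Ptprc/Adgre1. It ran from 0.00481 to 0.0561 for the Lyz2 share and 0.00199 to 0.0623 for the Ptprc share, 0.00908 to 0.0605 for co-detection of Adgre1 with Lyz2, 0.0203 to 0.294 for the Adgre1 position and 0.0124 to 0.0790 for the Lyz2 position. Precision is limited by 1 library at 24 h, 3 mo and 6 mo and 2 at most other times.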

Other observations

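The members also differed in how many transcripts a cell held. The most in any cell was 291 for Lyz2, 45 for Ptprc and 28 for Adgre1. Of cells with the gene, 20.4% to 32.0% held a single transcript of Lyz2, 35.1% to 54.5% of Adgre1 and 33.0% to 57.4% of Ptprc. Cells with Ptprc held on average 4.10, 4.29 and 3.49 of its transcripts in the 14 d sections, against 2.35 and 2.48 in the 0 h sections, without thinning. Cells with Lyz2 held 12.9, 13.8 and 10.7 of its transcripts at 14 d, against 6.20 and 5.61 at 0 h. The cells themselves held a median of 632, 626 and 470 transcripts at 14 d, against 314 and 317 at 0 h, and the part of that in these means was not tested.

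Across tiles of 400 units, the variance of Ptprc transcripts was 15.1 and 12.7 times their mean at 14 d, against 3.91 and 4.71 at 0 h. For Lyz2 it was 57.1 and 67.3 times the mean at 14 d, against 18.7 and 22.7 at 0 h, and for Adgre1 6.08 and 6.51 at 14 d, against 5.24 and 4.10 at 0 h. This ratio grows with the mean count per tile. The richest 5% of tiles held the largest share of Ptprc transcripts at 24 h, 35.9% and 36.7%, against 25.3% and 25.0% at 0 h. Such a share also rises where counts per tile are low. Ptprc had 1113 and 790 listed transcripts at 24 h, with 751 and 486 tiles used. At 0 h it had 2361 and 2797, with 1021 and 1026 tiles, and the part of this difference was not tested. The members' shares correlated across tiles in every section, with a Spearman correlation of 0.456 to 0.702 for Adgre1 with Lyz2, 0.351 to 0.563 for Adgre1 with Ptprc and 0.348 to 0.552 for Lyz2 with Ptprc. Tiles share neighbours and totals, and these values describe the sections.

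Ptprc without either other member was found in 2.84%, 2.98% and 2.73% of cells thinned to 100 transcripts at 14 d, against 1.37% and 1.84% at 0 h, and in 0.810% at 6 mo. Among thinned cells with Adgre1, 92.5% at 3 mo and 94.1% at 6 mo also held Lyz2, against 83.0% and 77.5% at 0 h, and the lowest value was 73.2% in section 1 of 72 h.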
